A study of Homo sapiens with 6 samples.

Results

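The NF-κB transcription factors and the IκB proteins that bind them were examined in SK-Hep1 cells given an oligonucleotide against the microRNA miR-21. The members were the 5 NF-κB subunit genes (NFKB1, NFKB2, RELA, RELB and REL), the 3 genes of classical cytoplasmic inhibitors (NFKBIA, NFKBIB and NFKBIE), and the genes of 2 nuclear IκB proteins (NFKBIZ and BCL3), taken by symbol from the annotation of the array. They had 22 probe sets among 54613. A probe set is a group of short probes read together as 1 value. Counted by gene, 10848 genes were tested on the array through a probe set that lists 1 gene. Of the 10 members, 9 are among them, all but BCL3. Of the 22 probe sets, 18 had a mean log2 value of at least 4 over the 6 arrays and were tested. The other 4, 1 each for NFKB2, REL, NFKBIA and BCL3, lay between 1.65 and 2.34 in the group means, and their log2 fold changes of 0.01 to 0.05 were not tested. Both BCL3 probe sets also list MIR8085, a microRNA gene at the same locus, so their signal is not assigned to BCL3 alone.

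SK-Hep1 is an established human cell line from a liver adenocarcinoma. The 3 mock arrays came from cells that went through lipid transfection without the oligonucleotide, called PBS in the design text, and the 3 anti-miR-21 arrays from cells transfected with 20 nM of anti-miR-21. Cells had been plated 24 hours before transfection and were collected 16 hours after it, and all 6 samples are labelled total RNA. The collection protocol refers to an Argonaute immunoprecipitation procedure, and which RNA fraction was hybridised is not settled by the labels. The mock cells received no control oligonucleotide, so an effect of any oligonucleotide and an effect of blocking miR-21 cannot be told apart. The labels call the replicates biological and say no more of the cultures; the p values speak for the variation among these 6 arrays.

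NF-κB proteins are dimers of subunits that share a Rel homology domain. RELA, RELB and REL carry activation domains, whereas NFKB1 and NFKB2 encode the precursors p105 and p100, which are trimmed to the DNA-binding subunits p50 and p52. Classical IκB proteins hold dimers in the cytoplasm until the IκB kinases mark them for destruction, and NFKBIA is itself switched on by NF-κB, which closes a feedback loop. In the alternative pathway, processing of p100 releases dimers of RELB and p52. The nuclear IκB proteins work differently: IκBζ, encoded by NFKBIZ, and BCL3 bind subunits already on DNA and raise or lower the transcription of selected genes, IL6 among those raised by IκBζ. Several of these genes are known NF-κB targets.

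The oligonucleotide is directed against miR-21, whose mature sequence is shown with its seed, bases 2 to 8, in capitals, because it is the molecule that the treatment addresses. The sequence is RefSeq's, at chr17:59841273-59841294 of GRCh38.p14, plus strand. Matches to this seed in the members' transcripts were not examined here.

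hsa-miR-21-5p: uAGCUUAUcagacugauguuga

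Promoter sequence was available from RefSeq (GRCh38.p14) for 8 of the 10 members, as 14 windows of 300 bases that run from 250 bases before an annotated start to 50 after it. RELB and NFKBIE had no entry. The κB consensus, the motif of NF-κB dimers, was searched on both strands, with overlapping matches counted apart. It was found in 9 of the 14 windows, and in 7 of the 8 genes, against 11.3% of 35116 windows and 13.3% of 27305 genes in the whole table. The member windows had a median GC content of 68.2% and a range of 51.3% to 80.0%, and all windows had a median of 58.7%. The AP-1 motif TGANTCA was in 1 member window (NFKBIB) and in 7.71% of all windows. The stretches below show the κB matches in capitals for members with high, intermediate and small differences in mRNA, so that their letters can be set side by side. Each is printed 5′ to 3′ along the gene and ends before the annotated start.

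NFKBIZ start 1 (chr3:101827755-101827788, plus strand): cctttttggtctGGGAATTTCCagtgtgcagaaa

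NFKBIZ start 2 (chr3:101849264-101849296, plus strand): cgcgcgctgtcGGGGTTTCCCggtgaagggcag

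NFKB2 start 2 (chr10:102394459-102394521, plus strand): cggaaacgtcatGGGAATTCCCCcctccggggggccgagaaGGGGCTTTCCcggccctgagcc

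NFKB1 start 1 (chr4:102501298-102501331, plus strand): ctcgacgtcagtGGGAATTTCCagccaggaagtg

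REL (chr2:60881515-60881549, plus strand): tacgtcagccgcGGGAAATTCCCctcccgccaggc

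NFKBIA (chr14:35404809-35404842, minus strand): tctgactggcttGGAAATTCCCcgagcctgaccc

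NFKBIB start 2 (chr19:38899929-38899963, plus strand): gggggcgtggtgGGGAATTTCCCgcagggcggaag

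The same 10 letters, GGGAATTTCC, stood 223 bases before NFKBIZ start 1, 49 bases before NFKB1 start 1 and 28 bases before NFKBIB start 2. NFKB2 had further matches at its start 3, among them GGGACTTTCC 21 bases before the start. BCL3 had 1, GGGAAGTCCC, just after its start, and neither RELA window held a match. A match is a run of letters and does not show binding.

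**Figure D1:**
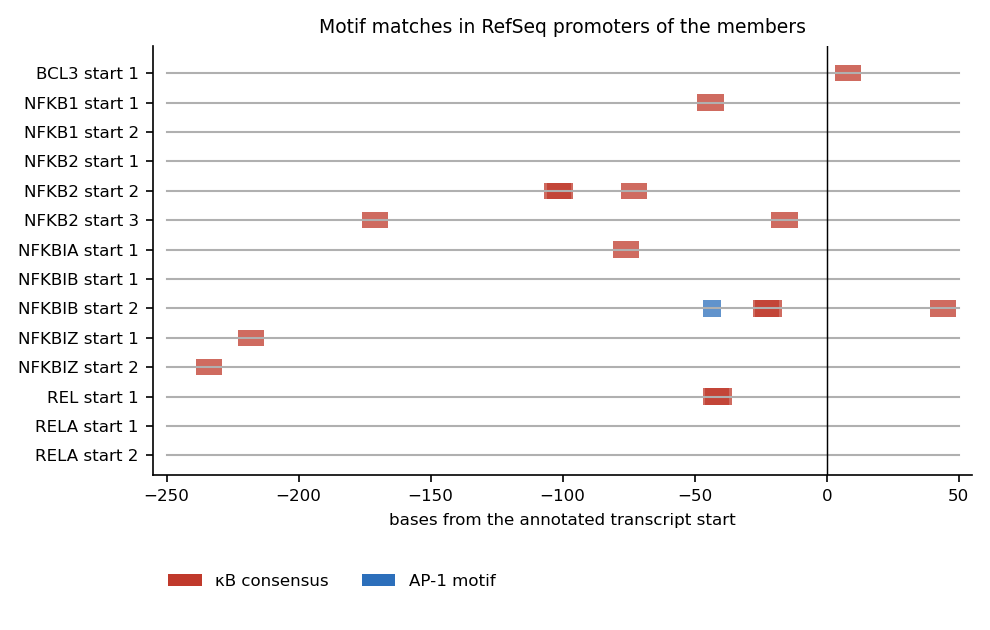
Matches to the κB consensus (red) and to the AP-1 motif (blue) in the 14 RefSeq promoter windows of the members, with the distance in bases from each annotated transcript start on the horizontal axis. κB matches lie in 9 windows, at 223 and 239 bases before the 2 NFKBIZ starts and at 49, 81 and 47 bases before those of NFKB1, NFKBIA and REL.

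NFKBIZ, the gene of IκBζ, was the 1 member that rose, on both of its probe sets. On the brighter probe set, which represents the gene, mock replicates 1 to 3 read 9.21, 8.72 and 8.85 and anti-miR-21 replicates 1 to 3 read 9.83, 10.21 and 10.23 (log2 expression). Every anti-miR-21 array lay above every mock array, with a gap of 0.62 between the nearest pair, and anti-miR-21 replicate 1 was the lowest of its group. The group means were 8.93 ± 0.25 and 10.09 ± 0.23 (SD, n = 3), a 2.24-fold difference with a 95% interval of 1.73 to 2.91 (limma adjusted p = 0.0200).

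The second NFKBIZ probe set, dimmer by itself, read 6.91, 7.02 and 6.73 in mock and 7.63, 8.37 and 8.30 with anti-miR-21. It again separated the groups, by 0.61, and again had anti-miR-21 replicate 1 lowest. The fold was 2.32 with an interval of 1.67 to 3.21 (limma adjusted p = 0.0343). Of 10848 genes, 4 had a larger log2 fold change than NFKBIZ. The call on the brighter probe set was lost when mock array 2 (adjusted p = 0.0821), mock array 3 (0.0836), treated array 2 (0.0886) or treated array 3 (0.0815) was left out, where treated means anti-miR-21 and the number is that of the replicate, with log2 fold changes of 1.06 to 1.31 over the 6 fits that leave out 1 array. The call on the dimmer probe set was lost without any array other than anti-miR-21 replicate 1, and without the filter on low values (adjusted p = 0.0874).

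**Figure D2:**
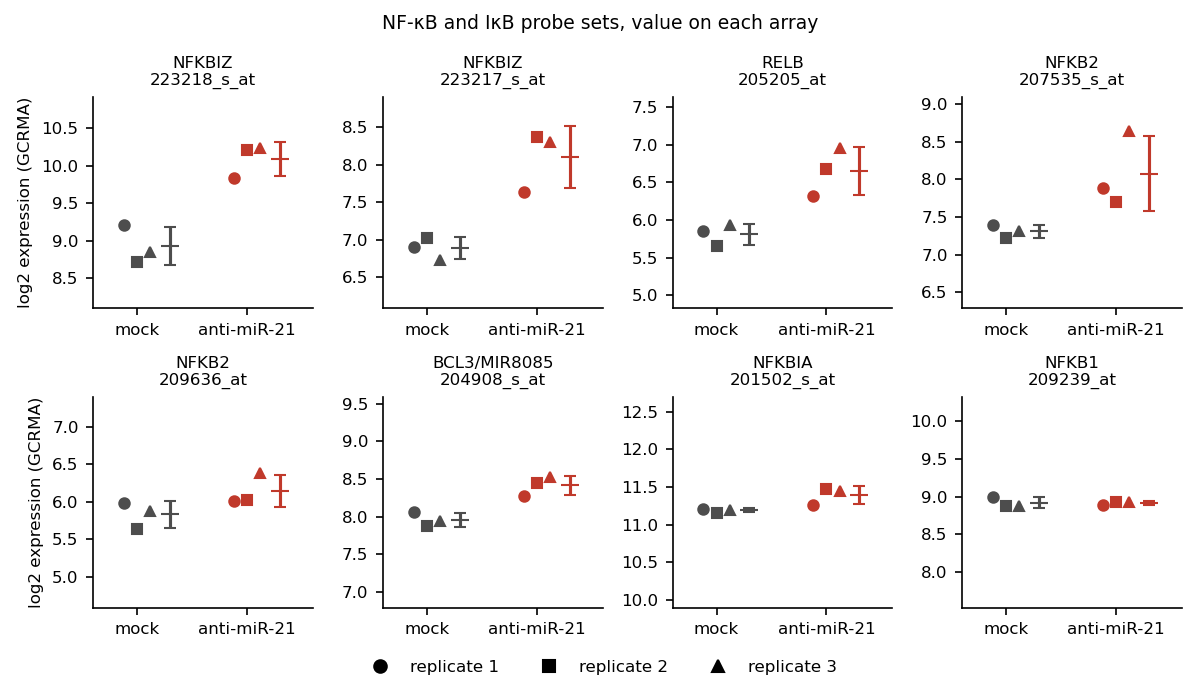
Log2 expression on each of the 6 arrays for 8 member probe sets, with mock in grey and anti-miR-21 in red, a symbol for each replicate number, and the mean ± SD of each group beside the points. All vertical axes span 2.8 log2 units. NFKBIZ moves from 8.93 to 10.09 on one probe set and from 6.89 to 8.10 on the other, while NFKB1 stays at 8.92.

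The subunits of the alternative pathway, RELB and NFKB2, had higher means with anti-miR-21 but did not pass the threshold. RELB, measured by 1 probe set, read 5.85, 5.65 and 5.93 in mock and 6.32, 6.68 and 6.96 with anti-miR-21. The groups did not overlap, and the nearest arrays were 0.40 apart. The means were 5.81 ± 0.15 and 6.65 ± 0.32 (SD, n = 3), a ratio of 1.80 with an interval of 1.38 to 2.35 (limma adjusted p = 0.0546, unadjusted p = 0.00136). RELB passed with the filter at a mean of 6 (adjusted p = 0.0354), with median centring (0.0287), with quantile normalization (0.0481), with probe sets averaged per gene (0.0361), with array weights (0.00355) and without anti-miR-21 replicate 1 (0.0246). RELB did not pass without the filter (adjusted p = 0.126), with the replicate block (0.0997) or with trend and robust eBayes (0.0502). Without any other single array the adjusted p was 0.0938 to 0.185.

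NFKB2, whose product p100 is both a precursor of p52 and an inhibitor, read 7.40, 7.22 and 7.31 in mock and 7.88, 7.70 and 8.64 with anti-miR-21 on its brighter probe set. All 3 anti-miR-21 arrays were above mock, and replicate 3 stood well apart from the other 2. The difference in means was 0.76 ± 0.23 (SE, limma adjusted p = 0.156) and a ratio of 1.70. Without anti-miR-21 replicate 3 the difference was 0.48. The dimmer NFKB2 probe set read 5.99, 5.64 and 5.88 in mock and 6.01, 6.03 and 6.39 with anti-miR-21, a difference of 0.31 ± 0.13 (SE, adjusted p = 0.294) that was 0.18 without anti-miR-21 replicate 3. Its groups were separated by 0.01 only, and anti-miR-21 replicate 3 was again the highest array.

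The probe set that lists BCL3 and MIR8085 read 8.06, 7.87 and 7.94 in mock and 8.27, 8.45 and 8.52 with anti-miR-21. BCL3 is a nuclear IκB protein that partners p50 and p52 homodimers. The groups were 0.21 apart at the nearest arrays. The means were 7.96 ± 0.095 and 8.41 ± 0.13 (SD, n = 3), a ratio of 1.37 with an interval of 1.19 to 1.57 (limma adjusted p = 0.0509, unadjusted p = 0.00113). It passed with the filter at 6 (adjusted p = 0.0337), median centring (0.0357), quantile normalization (0.0327), array weights (0.00284) and without anti-miR-21 replicate 1 (0.0341), and lay between 0.0599 and 0.183 without any other array. It did not pass without the filter (adjusted p = 0.0958), with the replicate block (0.171) or with trend and robust eBayes (0.0518).

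NFKB1, RELA and REL, which make up the dimers of the classical pathway, had differences of at most 0.21 log2 units, and none passed. NFKB1 read 9.00, 8.88 and 8.88 in mock and 8.89, 8.93 and 8.93 with anti-miR-21. The groups overlapped and their means were equal at 8.92, with an interval for the ratio of 0.915 to 1.09 (limma adjusted p = 0.999). NFKB1 encodes the precursor p105, and 1 probe set measured it.

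RELA, the main activating subunit, had 2 probe sets. The brighter read 10.54, 10.50 and 10.58 in mock and 10.51, 10.57 and 10.82 with anti-miR-21, and the other read 9.53, 9.51 and 9.59 against 9.59, 9.63 and 9.93. On both, anti-miR-21 replicate 3 was the highest array and the other 2 lay close to mock. The groups overlapped on the brighter probe set and were 0.006 apart on the other. The ratios were 1.06 (interval 0.921 to 1.23, limma adjusted p = 0.644) and 1.13 (0.965 to 1.32, adjusted p = 0.395). Without anti-miR-21 replicate 3 the differences were -0.005 and 0.07, against 0.09 and 0.17 with all arrays.

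REL, the c-Rel subunit best known from lymphocytes, had 4 tested probe sets that differed among themselves. A probe set at 7.66, 7.57 and 7.56 in mock read 7.79, 7.75 and 7.86 with anti-miR-21, with no overlap and a difference of 0.21 ± 0.057 (SE, limma adjusted p = 0.128). The brightest read 8.11, 8.18 and 8.03 against 8.19, 8.16 and 8.38, with overlap and a difference of 0.14 (adjusted p = 0.402), or 0.07 without anti-miR-21 replicate 3. The other 2 had differences of 0.03 and -0.11 (adjusted p = 0.918 and 0.629), with the groups overlapping in both.

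Among the classical inhibitors, NFKBIA, NFKBIB and NFKBIE, differences lay between 0.06 and 0.22 log2 units and none passed. NFKBIA, the gene of IκBα and a feedback target of NF-κB, read 11.21, 11.16 and 11.20 in mock and 11.26, 11.47 and 11.45 with anti-miR-21. Anti-miR-21 replicate 1 lay 0.04 above the highest mock array, and replicates 2 and 3 lay higher. The ratio was 1.15 with an interval of 1.03 to 1.29 (limma adjusted p = 0.204, unadjusted p = 0.0242).

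NFKBIB, the gene of IκBβ, had 2 bright probe sets and 1 dimmer one. The brightest read 9.03, 9.05 and 9.20 in mock and 9.27, 9.29 and 9.37 with anti-miR-21, and the next 8.16, 8.20 and 8.32 against 8.47, 8.37 and 8.41. Neither overlapped between groups, with ratios of 1.16 and 1.14 (limma adjusted p = 0.149 and 0.186). Both are of a probe set type that can cross-hybridise with other transcripts. The dimmest NFKBIB probe set overlapped, at 6.03 to 6.42 in mock and 6.21 to 6.53 with anti-miR-21 (difference 0.06, adjusted p = 0.854). NFKBIE, the gene of IκBε, read 9.28, 9.34 and 9.47 in mock and 9.46, 9.56 and 9.50 with anti-miR-21. The groups overlapped by 1 array, and the ratio was 1.11 with an interval of 0.990 to 1.23 (adjusted p = 0.318).

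**Figure D3:**
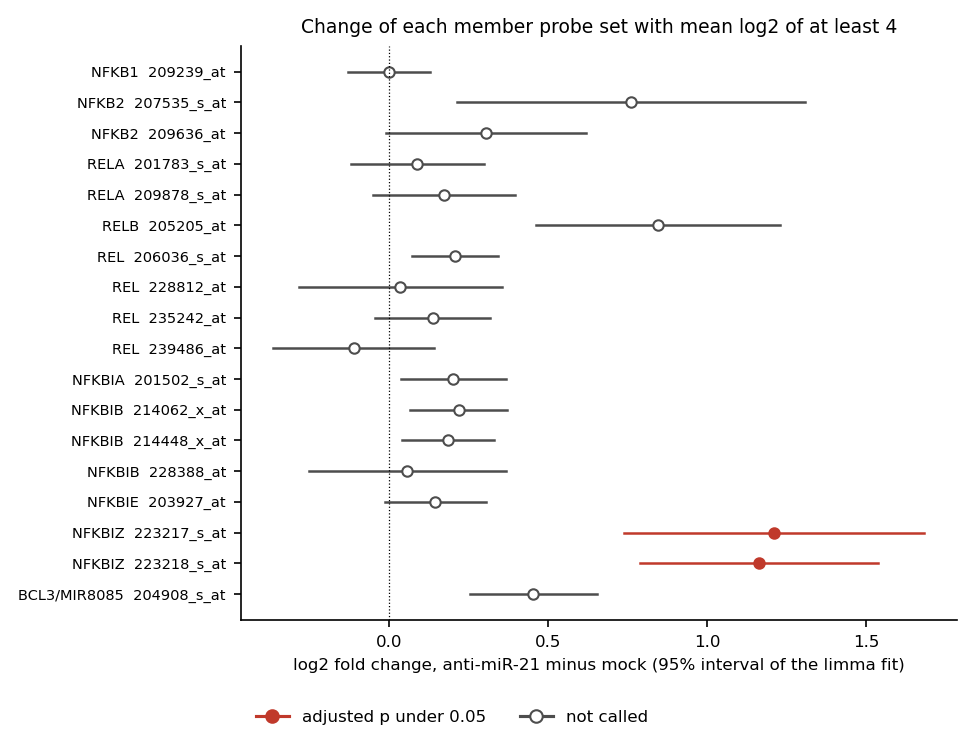
Log2 fold change (anti-miR-21 minus mock) of the 18 tested member probe sets with the 95% interval of the limma fit, filled red where the adjusted p is under 0.05. The 2 NFKBIZ probe sets, at 1.16 and 1.21, are the filled points, and NFKB1 lies at 0.

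Over the members as a group, 2 of 18 tested probe sets were higher and none lower by limma at an adjusted p under 0.05, both of NFKBIZ, where 1.10% of all 22408 tested probe sets were higher and 1.07% lower. At an unadjusted p under 0.05, 9 of 18 were higher and none lower, against 8.06% and 9.70% of all tested probe sets. Of the 18, 16 had a positive log2 fold change, against 49% of all tested probe sets, and the median was 0.19 against 0.00. In 11 of 18 all anti-miR-21 arrays lay above all mock arrays, as in 11.4% of all tested probe sets, and in none did they all lie below, as they did in 12.6% of all. Counted by gene, with the brightest single-gene probe set standing for each, 1 of 9 was higher and none lower, where 0.913% of all genes were higher and 1.22% lower. At an unadjusted p under 0.05 the counts were 5 and 0 of 9, against 6.84% and 11.3% of all genes. No member probe set was called by limma when mock array 2 or 3 or treated array 2 or 3 was left out, 1 was called when mock array 1 was, and 4 when treated array 1 was. With all arrays, limma called 486 of the 22408 tested probe sets in either direction. It called 97, 185, 105 and 96 without mock array 2, mock array 3, treated array 2 and treated array 3. Without mock array 1 it called 422, and without treated array 1 it called 574.

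The deviations were not equal over the 3 anti-miR-21 arrays. Taking each tested member probe set relative to its own mock mean, the median over the 18 was 0.17, 0.18 and 0.28 log2 units in anti-miR-21 replicates 1, 2 and 3, and between -0.04 and 0.03 in mock. The median over all tested probe sets lay between -0.02 and 0.01 on every array. Anti-miR-21 replicate 3 was the highest of the 6 arrays for 10 of 18 member probe sets, including those of RELB, RELA and NFKB2, whereas replicate 1 had the smallest deviation of the 3 for NFKBIZ, RELB, NFKBIA and the BCL3 and MIR8085 probe set. What sets these arrays apart was not tested.

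**Figure D4:**
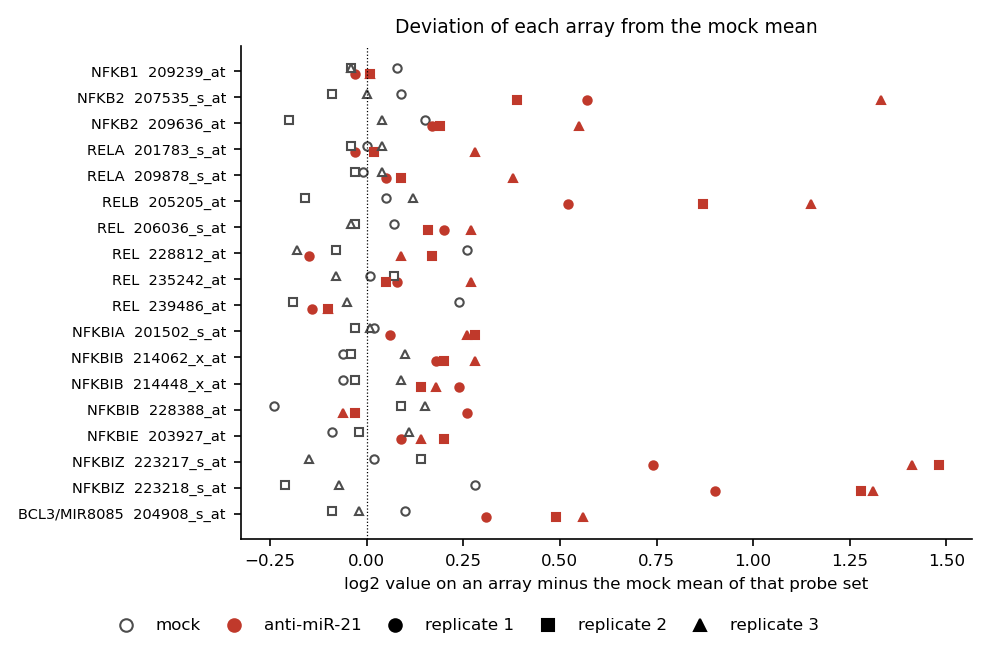
Log2 value on each array minus the mock mean of the same probe set, for the 18 tested member probe sets, with mock as open grey and anti-miR-21 as filled red symbols and the symbol's shape giving the replicate number. For both NFKBIZ probe sets the anti-miR-21 arrays lie at 0.74 to 1.48, and for NFKB2 replicate 3 lies at 1.33 beside 0.39 and 0.57.

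Whether other members changed as much as NFKBIZ was asked with the difference between each gene and NFKBIZ on the same array. The log2 fold changes of NFKB1, RELA, REL, NFKBIA, NFKBIB and NFKBIE were smaller than that of NFKBIZ, by 0.95 for NFKBIB (95% interval -1.52 to -0.37) up to 1.17 for NFKB1 (-1.61 to -0.72), with adjusted p of 0.00922 to 0.0116 in a linear model per gene over the 3 and 3 arrays. The differences of RELB, at -0.32 (interval -0.74 to 0.10, adjusted p = 0.102), and NFKB2, at -0.40 (-1.19 to 0.38, adjusted p = 0.228), did not pass, and these intervals do not show that the 3 genes changed alike. NFKBIZ is near the top of the array, so 99.0% of 10847 genes were below it by the same rule. limma with eBayes gave the same 6 calls and 99.6% of genes. It treats the spread of NFKBIZ, which every difference shares, as if it were measured anew for each gene, so its p values are not given.

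The genes whose profile over the 6 arrays lay nearest to that of NFKBIZ were GDF15, THRB, ATF3, KLHL15 and DENND5B. Likeness was the Euclidean distance between log2 values set to the mock mean, which was 0.31, 0.40, 0.42, 0.44 and 0.47. Among the members, RELB stood at position 17 of 10847 genes (distance 0.66) and NFKB2 at 39 (0.98), and the next, NFKBIA, at 633 (1.71). The measure mostly reflects the size of the change.

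Around the members, the genes that carry the signal to them showed no common direction. Of 28 kinases and adaptors upstream of IκB with a single-gene probe set, 25 had a mean of at least 4 and were tested. By limma 1 fell, none rose and 24 did not pass, where 0.913% of all genes rose and 1.22% fell. At an unadjusted p under 0.05, 2 were higher and 4 lower, shares near the 6.84% and 11.3% of all genes, and the median log2 fold change was 0.00 against -0.02 over all genes. CHUK, the catalytic subunit IKKα, which drives the processing of p100, fell 1.73-fold. It read 10.75, 10.51 and 10.39 in mock and 9.76, 9.85 and 9.67 with anti-miR-21, with no overlap (limma adjusted p = 0.0174). The call was lost when mock array 2, treated array 2 or treated array 3 was left out (adjusted p = 0.0805, 0.0616 and 0.0731). BIRC2, a ubiquitin ligase that restrains the alternative pathway, had a difference of 0.24 on tightly grouped arrays, 12.97 to 13.02 against 13.23 to 13.25 (adjusted p = 0.0522). It passed under 6 of 8 alternatives that keep all arrays, and in none of the 6 fits that leave out 1 array (limma adjusted p = 0.0718 to 0.196). The adaptor ligase TRAF6 and the kinase IKBKE had differences of -0.19 and -0.14 (adjusted p = 0.197 and 0.200).

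Among 22 negative regulators of the pathway with a single-gene probe set, 20 had a mean of at least 4 and were tested. By limma 1 fell, none rose and 19 did not pass, where 1.22% of all genes fell and 0.913% rose. At an unadjusted p under 0.05, 3 were higher and 1 lower, against 6.84% and 11.3% of all genes, and the median was 0.04 against -0.02. CYLD, a deubiquitinase that removes the ubiquitin chains used in signalling, fell 1.22-fold on its brightest probe set, from 8.62, 8.60 and 8.56 to 8.30, 8.31 and 8.33 (limma adjusted p = 0.0338). Of its other probe sets, 1 fell by 0.37 (limma adjusted p = 0.0270), another had a difference of -0.30 (0.0808), and the dimmest, with overlapping groups, -0.10 (0.832). The CYLD call was lost without any 1 array (adjusted p = 0.0676 to 0.146), with median centring (0.0543), with trend and robust eBayes (0.0503) and with probe sets averaged (0.0677). TNFAIP3, the feedback inhibitor A20 and an NF-κB target like NFKBIA, read 8.84 to 8.88 in mock and 8.99 to 9.09 with anti-miR-21 (difference 0.18, adjusted p = 0.142), and on a dimmer probe set the groups overlapped (0.35, adjusted p = 0.472). It is also in the target list below. OTULIN, a deubiquitinase of linear chains, and N4BP1, a suppressor of NF-κB signalling, had differences of 0.39 and 0.17 (adjusted p = 0.223 and 0.246). The dimmer probe sets were at -0.18 and 0.03 for OTULIN and at 0.09, -0.02 and -0.33 for N4BP1. OTULIN's difference was 0.22 without mock replicate 1 and 0.08 with probe sets averaged, and N4BP1's was -0.02 averaged.

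Of 38 target genes of NF-κB other than the members with a single-gene probe set, 27 had a mean of at least 4 and were tested. By limma 7 rose, none fell and 20 did not pass, where 0.913% of all genes rose and 1.22% fell. At an unadjusted p under 0.05, 12 were higher and none lower, against 6.84% and 11.3% of all genes, and the median was 0.17 against -0.02. The 7 were the chemokines CXCL1, CXCL2, CXCL3 and CXCL8, the cytokines IL6 and IL1A, and CD83, a membrane protein of activated antigen-presenting cells. On the probe sets that represent them, the folds ran from 1.47 for CXCL1 to 2.02 for CXCL2. The probe sets that represent CXCL2 and CXCL8 are of the type that can cross-hybridise with other transcripts. A dimmer CXCL8 probe set also rose, 2.03-fold with no overlap between the groups (limma adjusted p = 0.0276). CD83 rose 1.67-fold, from 8.70, 8.91 and 8.96 to 9.67, 9.48 and 9.63 (limma adjusted p = 0.0144). ICAM1, an adhesion molecule whose transcription NF-κB drives, did not pass on its representative probe set (0.39, adjusted p = 0.0695), while another rose by 0.72 (adjusted p = 0.0438) and the dimmest had a difference of 0.50 (0.0528). It is named after its values were seen, and on all 3 probe sets the groups did not overlap. The number of target genes that rose was 0 when mock array 2 was left out and 2 for mock array 3, treated array 2 or treated array 3. It was 4 for mock array 1 and 7 for treated array 1. Over all genes, the number that rose was 99 with all arrays. It was 14, 31, 19 and 16 without mock array 2, mock array 3, treated array 2 and treated array 3. Without mock array 1 it was 84, and without treated array 1 it was 91.

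Of 21 genes reported to depend on IκBζ, 18 had a single-gene probe set, and 9 of these had a mean of at least 4 and were tested. Of the 9 tested, 6 rose, none was lower and 3 did not pass, beside the same 0.913% and 1.22% of all genes. The unadjusted counts were also 6 and 0 by limma, against 6.84% and 11.3% of all genes, and the median was 0.55 against -0.02. Of these 6, 5 are also in the target list above, namely CXCL1, CXCL2, CXCL3, CXCL8 and IL6, so the 2 counts are not separate. The sixth, the neutrophil chemokine CXCL6, had means of 9.52 ± 0.097 in mock and 9.93 ± 0.086 with anti-miR-21 (SD, n = 3) and rose 1.33-fold (limma adjusted p = 0.0435), a call lost without any array other than mock replicate 1, without the filter (0.0752) and with median centring (0.0616). The chemokine CCL2, IL17C and the complement gene C3 had differences of 0.14, -0.08 and -0.04 (adjusted p = 0.335, 0.527 and 0.870). The count that rose was 0 when mock array 2 was left out, 1 for mock array 3 or treated array 2 and 2 for treated array 3. It was 4 for mock array 1 and 5 for treated array 1. Beside these stand 99 genes over the whole array with all 6 arrays. That number was 14, 31, 19 and 16 without mock array 2, mock array 3, treated array 2 and treated array 3. It was 84 without mock array 1 and 91 without treated array 1.

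**Figure D5:**
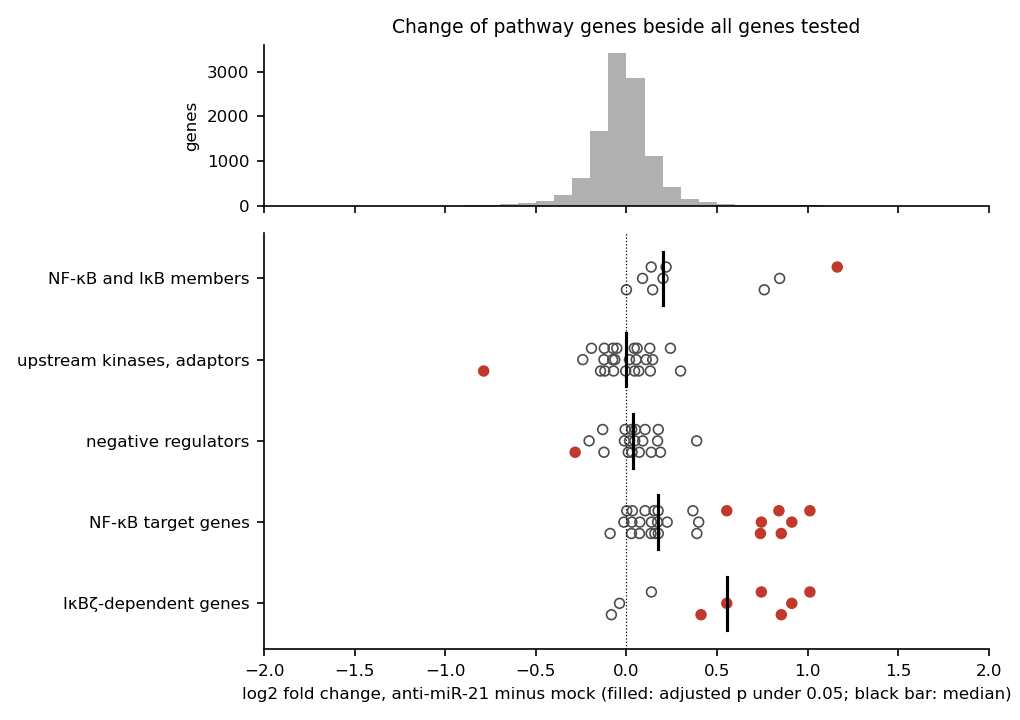
Upper panel, number of genes per 0.1 of log2 fold change (anti-miR-21 minus mock) over all 10848 genes, with values beyond 2 in either direction counted in the outermost bins. Lower panel, the same scale for the 9 member genes and the 4 pathway lists, 1 point per gene, filled where the limma adjusted p is under 0.05, with a bar at each median. The medians are 0.20 for the members, 0.00 for upstream genes, 0.04 for negative regulators, 0.17 for target genes and 0.55 for genes reported to depend on IκBζ.

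Over the whole series, the arrays had 22277 to 22591 probe sets at or above a log2 value of 4, and 2 arrays of the same group correlated at 0.99625 to 0.99828 over tested probe sets, against 0.99387 to 0.99729 for arrays of different groups. Of 10 hepatocyte markers, 8 had means below 4, albumin (ALB) and APOA1 among them, and SERPINA1 was bright, whereas 5 of 7 mesenchymal and 3 of 6 epithelial markers had means of at least 8. The summed level was 16.68 to 16.74 (log2) for mesenchymal and 16.29 to 16.39 for epithelial markers in mock, with the keratins KRT8 and KRT18 bright and CDH1 below 4. Of 10 endothelial markers 5 were below 4, including PECAM1 and CDH5, and 2 had means of at least 8. These 2 were ENG, at 10.28 in mock, and ROBO4, at 8.05. Leukocytes are rich in NF-κB transcripts, and 6 of 7 leukocyte markers, PTPRC among them, were below 4, with CD14 at 5.24 in mock. In anti-miR-21 replicates 1 to 3 CD14 read 5.58, 5.25 and 5.25, so only replicate 1 lay above the mock arrays, at 5.23 to 5.27. The summed leukocyte marker level was 6.20 to 6.23 (log2) in mock and 6.25 to 6.40 with anti-miR-21, and its part in the members' values was not tested. In bulk RNA, more cells that express a gene and more RNA per cell cannot be told apart.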

How the data were processed

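The values deposited are log2 expression of 54675 probe sets on 6 one-colour arrays. The submitters' processing notes name GCRMA, with no version. Because GCRMA pulls dim signals together, a fold from a dim level is less certain. The log2 values were used as deposited. Of 54613 probe sets other than 62 controls, 41091 list 1 gene, 1801 several and 11721 none in the platform annotation; symbols were updated through Entrez identifiers against RefSeq, and 54 were not matched and kept theirs. Probe sets with a mean of at least 4 entered the test (22408, 41.0%), a 2-group lmFit and eBayes fit by limma (version 3.58.1, under R 4.3.3; two-sided, Benjamini-Hochberg over all tested probe sets, threshold 0.05). A gene took its brightest single-gene probe set. Fold changes are anti-miR-21 over mock. Precision is limited by 3 arrays per group.

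The members, lists and tests were chosen with earlier results of these data known. Named genes are all members, called genes of each pathway list (up to 8, or the 4 smallest p), the 5 nearest to NFKBIZ, and exceptions marked in the text. Alternatives were the filter, centring, quantile normalization, trend and robust eBayes, array weights, a replicate block, averaged probe sets and leaving out each array. The unmoderated linear model for differences from NFKBIZ was added after seeing the data, since eBayes took infinite prior degrees of freedom for values that share 1 gene.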

Additional observations from a re-analysis of the deposited data

How the results depend on the processing

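With 3 arrays per group, single calls were sensitive to the setting. Replicate numbers are shared by the groups in the labels. Deviations from the group means of same-numbered arrays correlated at -0.36, -0.27 and -0.002. With 3 arrays per group, these values do not settle whether same-numbered samples were paired. With the replicate block, 0 member probe sets, 0 member genes, 0 upstream genes, 0 negative regulators, 0 targets and 0 genes reported to depend on IκBζ were called in either direction. The NFKBIZ probe sets kept their fold with limma adjusted p of 0.0991 and 0.0839. Over the whole array, this setting called 16 of 10848 genes higher and 16 lower, and 91 of 22408 probe sets in either direction. Member probe sets called higher numbered 1 without the filter, 4 with the filter at 6, median centring or quantile normalization, and 11 with array weights. Member genes called higher numbered 2 with the filter at 6, median centring, quantile normalization or averaged probe sets, and 6 with array weights. Over all genes, the main fit called 99 higher and 132 lower. The numbers were 67 and 104 without the filter, 125 and 188 with the filter at 6, and 76 and 112 with median centring. Quantile normalization called 106 and 127, trend and robust eBayes 109 and 163, averaging 161 and 194, and array weights 971 and 1470. These weights ran from 0.38 to 7.43, the highest for mock replicate 2, and called 4952 of 22408 probe sets. Upstream genes called higher numbered 1 without the filter, with the filter at 6, quantile normalization, trend and robust eBayes or averaging, and 3 with array weights, which also called 4 lower. Negative regulators called lower numbered 0 with median centring, trend and robust eBayes or averaging, and 2 were higher with array weights, which called 14 targets. Leaving out 1 array gave 0 to 4 member probe sets, 0 to 2 member genes, 0 to 1 upstream genes lower, 0 negative regulators lower, 0 to 7 targets and 0 to 5 genes reported to depend on IκBζ. Over all genes the same fits called 14 to 91 higher and 24 to 135 lower. No member was called lower under any of these settings. Among uncalled values, direction changed for NFKB1 (0.039 with array weights, -0.02 to 0.039 leaving out 1 array) and RELA (-0.005 to 0.15). It changed for the dimmest NFKBIB probe set (-0.063 to 0.134, and -0.067 with array weights) and N4BP1 (-0.022 averaged). It also changed for 2 REL probe sets. The one with a mock mean of 7.12 ran from -0.057 to 0.164, and was -0.003 with median centring. The one with a mock mean of 4.18 ran from -0.207 to 0.006, and was 0.057 with array weights. The cause of these changes was not tested.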
